A study of Mus musculus with 42 samples.

Results

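The genes described here are 9 imprinted genes of growth control that lie outside mouse chromosome 6: Igf2, H19, Igf2r, Cdkn1c, Grb10, Peg3, Plagl1, Snrpn and Impact. They were found by gene symbol, each with 1 row, among the 24225 genes of the deposited expression table. Messenger RNA had been sequenced in 42 libraries from mouse embryonic stem cells (ESC) and from embryoid bodies, free-floating aggregates in which ESC differentiate once leukaemia inhibitory factor (LIF) is removed. The lines K1 and K3 are double knockouts (DKO) of AMPK, an enzyme switched on when cells run short of energy, and the lines W1 and W2 are wild type (WT). All 4 lines are labelled as C57Bl/6. Embryoid bodies grew in low glucose (LG, 2.5 mM) or high glucose (HG, 25 mM) and were harvested after 2, 4, 8 and 12 days. ESC had been grown on irradiated feeder cells and passaged without them before collection. Each line was a single cell line, so a genotype was represented by at most 2 independent values.

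An imprinted gene is transcribed mainly from the copy inherited from one parent, because a DNA methylation mark set in the egg or sperm is kept through early development. Many such genes act on growth: genes transcribed from the paternal copy often promote it, and genes transcribed from the maternal copy often restrain it. Total RNA levels, as measured here, do not show which parental copy a transcript came from. In bulk libraries, fewer cells of a type and less RNA per cell cannot be told apart.

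Positions are given on mm10. On chromosome 7, H19 spans 142575532 to 142578146 and Igf2 spans 142650768 to 142657481, and both share one imprinting control region. Cdkn1c spans 143458339 to 143461050 on the same chromosome, Snrpn 59982502 to 60005156 and Peg3 6705960 to 6730419. Igf2r lies on chromosome 17 (12682406 to 12769706), Grb10 on chromosome 11 (11930499 to 12027971) and Plagl1 on chromosome 10 (13090788 to 13131695). Plagl1 is on the plus strand and the other genes named here on the minus strand. The position of Impact is given with its values.

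H19 is the host of a microRNA, and both of its mature arms are shown because they are the products of H19 that carry a known targeting sequence. In RefSeq (GRCm38.p6) the 5p arm lies at chr7:142577112-142577133 and the 3p arm at chr7:142577078-142577099, both on the minus strand. Written 5′ to 3′ with the seed (bases 2 to 8) in capitals, they read
mmu-miR-675-5p: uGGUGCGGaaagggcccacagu
mmu-miR-675-3p: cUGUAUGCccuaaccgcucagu
The arms do not share a seed.

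The promoters of Snrpn and Plagl1 are shown because these members moved in opposite directions during differentiation, as given below, while each holds 1 copy of TGCCGC. That sequence is the core which the zinc finger protein Zfp57 binds, when methylated, at imprinting control regions. The windows run from 250 bases before to 50 bases after a RefSeq start (GRCm38.p6), at chr7:60005150-60005449 on the minus strand for Snrpn and at chr10:13090582-13090881 on the plus strand for Plagl1. Capitals mark the match, which lies on the opposite strand in both and therefore reads GCGGCA.
Snrpn promoter: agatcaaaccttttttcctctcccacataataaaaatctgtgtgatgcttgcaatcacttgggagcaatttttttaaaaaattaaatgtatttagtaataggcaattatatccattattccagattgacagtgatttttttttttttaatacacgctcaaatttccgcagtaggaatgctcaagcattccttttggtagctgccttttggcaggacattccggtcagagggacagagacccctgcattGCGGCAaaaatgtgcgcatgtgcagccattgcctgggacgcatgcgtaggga
Plagl1 promoter: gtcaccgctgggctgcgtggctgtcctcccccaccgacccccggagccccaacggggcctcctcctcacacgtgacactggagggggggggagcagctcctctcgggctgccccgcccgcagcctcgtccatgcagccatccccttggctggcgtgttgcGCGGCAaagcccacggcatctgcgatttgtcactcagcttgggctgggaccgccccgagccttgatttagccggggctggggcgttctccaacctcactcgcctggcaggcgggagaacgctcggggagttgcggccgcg
RefSeq windows were found for 6 of the 9 members, 13 windows in all, and 4 windows held the motif on either strand. These were 1 each of Snrpn, Plagl1, Igf2 and Grb10, and the other Snrpn windows did not hold it. Among all 32851 windows of the same length, 11.6% held it at least once. The Plagl1 window held 26 CpG dinucleotides and the Snrpn window 7, where the median over all windows was 7.

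Values are RPKM, reads scaled by transcript length and library size, which allows levels to be compared between genes. The headings were set against 3 genes first: the targeted Prkaa2 (above 1 RPKM for WT), Txnip, a transcript induced by glucose (above 5 RPKM for HG), and the Y-linked Ddx3y, whose level separates the lines. A total of 24 libraries matched their headings, 11 DKO and 13 WT, and 18 went against at least 1 of these genes. Of these 18 libraries, 5 headed DKO had Prkaa2 above 1 RPKM, and 4 headed WT had it at or below 1 RPKM. Among the matched libraries, Prkaa2 was at 0.019 to 0.959 RPKM in DKO libraries and at 1.32 to 22.3 RPKM in WT libraries. No library was moved to another group. The tests below use the 24 matched libraries, and the same tests on all 42 libraries as labelled are given beside them. Since the thresholds were set on these libraries, Prkaa2, Txnip and Ddx3y are no results here, and they check the line, genotype and glucose but not the day. Matched WT LG values of days 8 and 12 came from W1 alone and matched DKO HG values of days 8 and 12 from K3 alone, so each such arm is 1 library. Depth was 10500000 to 25500000 reads per library, with a median of 15400000.

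All 9 members passed the filter on low values (at least 1 RPKM in at least 2 values). Over all 42 libraries, Igf2 ranged most widely, between 0.945 and 2329 RPKM, followed by H19 (0.648 to 246 RPKM) and Plagl1 (0.747 to 266 RPKM). The other members kept a narrower range: Cdkn1c 5.39 to 226 RPKM, Igf2r 9.47 to 166 RPKM, Snrpn 9.33 to 138 RPKM, Peg3 23.2 to 285 RPKM, Grb10 36.4 to 364 RPKM and Impact 13.5 to 86.9 RPKM. The smallest value of H19 stood for about 27 reads and that of Igf2 for about 62 reads.

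**Figure D1:**
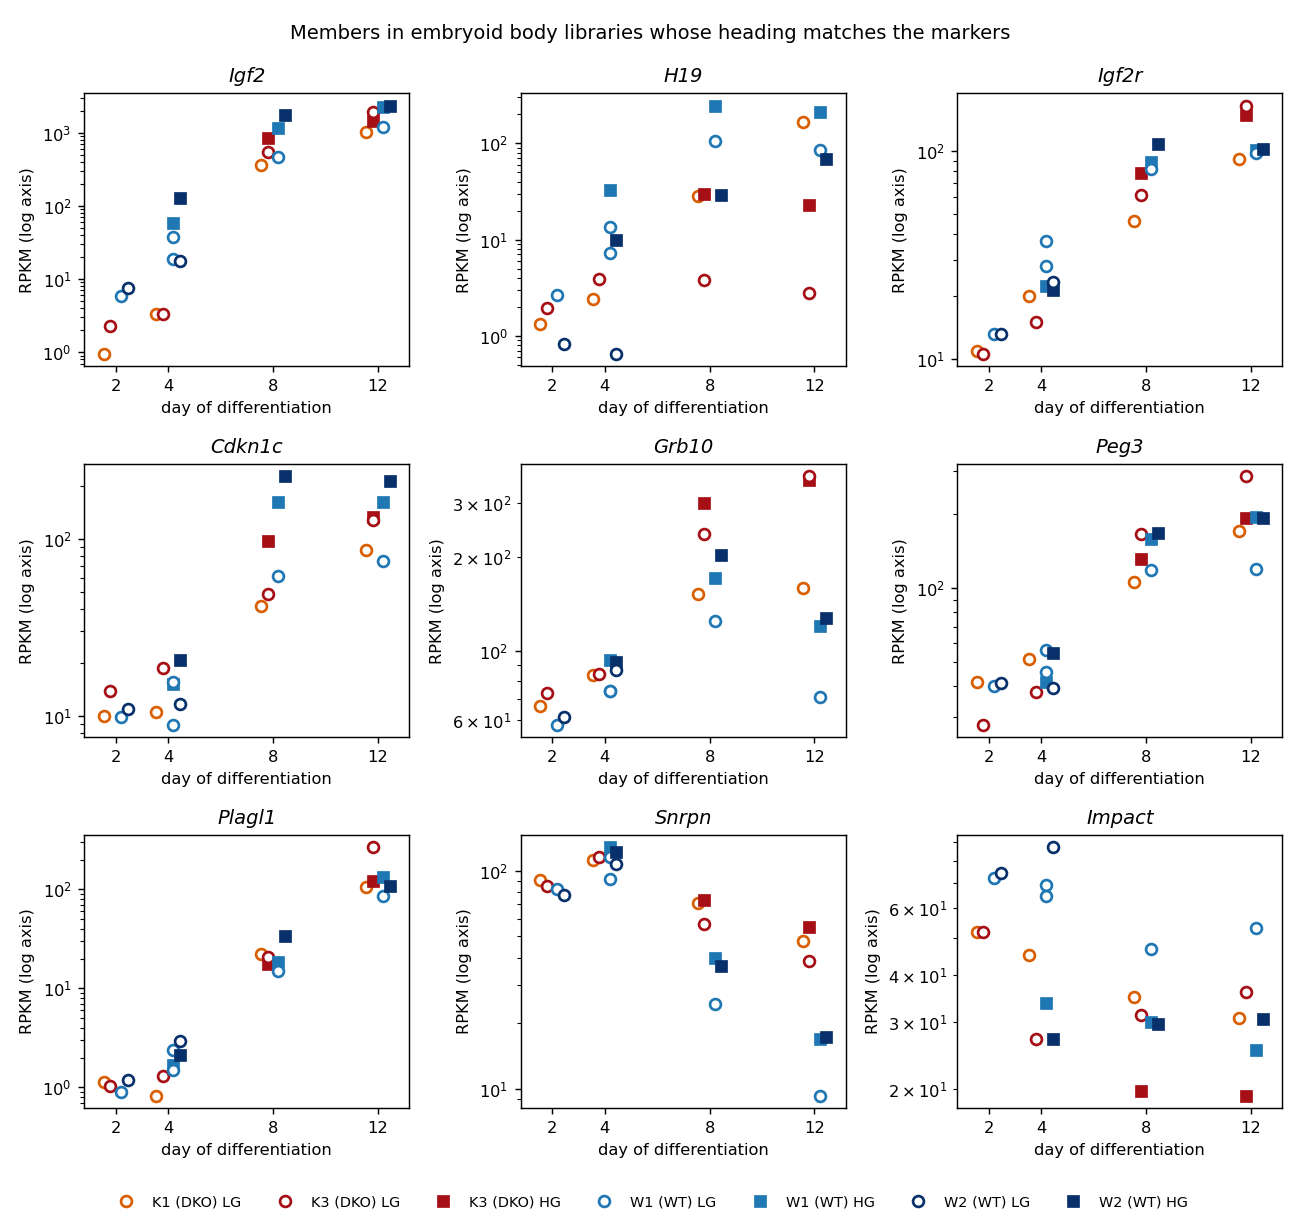
RPKM (log axis) of the 9 members against the day of differentiation in the matched embryoid body libraries, 1 point per library, with DKO lines left of WT lines, open circles for LG and filled squares for HG. Igf2 and Plagl1 are higher on days 8 and 12 than on days 2 and 4 in every line, the Snrpn points of DKO libraries lie above those of WT libraries on days 8 and 12, and in LG at days 2 to 12 the Impact points of DKO libraries lie below those of WT libraries.

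Differentiation moved most of the members. Between day 12 and day 2 in LG, 8 of 9 members passed the test in DKO lines, where 50.9% of all 14672 genes tested did, and 7 of 9 passed in WT lines, where 54.3% did (limma on log2(RPKM + 1), Benjamini-Hochberg adjusted p under 0.05). Both shares of all genes are large, so a call in this contrast says little that is particular to the members. In all 42 libraries as labelled, 5 members passed in DKO lines and 0 in WT lines. Of all 14918 genes tested there, 2769 passed in DKO lines and 116 in WT lines.

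Igf2, the fetal growth factor that signals through the Igf1 and insulin receptors, had the largest change of the members with time. It reached 1004 RPKM in K1 and 1924 RPKM in K3 on LG day 12, against 0.945 RPKM in K1 and 2.26 RPKM in K3 on LG day 2. That is a log2 change of 9.11 ± 0.41 (SE) in DKO lines. In WT, the single day 12 library (W1) had 1198 RPKM, against 5.84 RPKM in W1 and 7.47 RPKM in W2 on day 2, a log2 change of 7.30 ± 0.50. Plagl1, a zinc finger transcription factor that restrains the cell cycle and regulates other imprinted genes, followed with a log2 change of 6.34 ± 0.36 in DKO lines and 5.40 ± 0.44 in W1 over the WT lines of day 2. It was at 106 and 266 RPKM in DKO lines on day 12, against 1.15 and 1.03 RPKM on day 2, and at 85.1 RPKM in W1 on day 12, against 0.897 and 1.18 RPKM in WT lines on day 2.

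Igf2r, the receptor that clears Igf2 into lysosomes, Cdkn1c, an inhibitor of cyclin-dependent kinases, and Peg3, a zinc finger protein made from the paternal copy, rose more moderately. Igf2r averaged 128 ± 52.5 RPKM in DKO lines on LG day 12, against 10.8 ± 0.252 RPKM on day 2 (SD, n = 2 lines each). Cdkn1c averaged 107 ± 29.6 RPKM in DKO lines on day 12, against 12.0 ± 2.72 RPKM on day 2, and Peg3 228 ± 80.5 RPKM on day 12, against 34.8 ± 9.79 RPKM on day 2 (SD, n = 2 lines each). In W1 on day 12 these were at 98.1 RPKM (Igf2r), 75.4 RPKM (Cdkn1c) and 120 RPKM (Peg3), with log2 changes of 2.80, 2.75 and 1.54 over the WT lines of day 2. The WT call of Peg3 was lost without W2 (adjusted p = 0.0517). In HG, WT lines averaged 102 ± 0.339 RPKM of Igf2r on day 12, against 98.5 ± 13.4 RPKM on day 8 (SD, n = 2 lines each). Between HG days 12 and 8 in WT lines 2 of 9 members passed, Plagl1 (log2 change 2.21 ± 0.36) and Snrpn (-1.11 ± 0.12), where 6.18% of all genes did. Neither passed when either WT line was left out, which leaves 1 library in each arm.

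Snrpn, which encodes a splicing protein and lies within the imprinted Prader-Willi region, was the only member whose fall passed the test in both genotypes. In DKO lines it was at 47.6 and 38.5 RPKM on LG day 12, against 91.0 and 84.8 RPKM on LG day 2 (log2 change -1.02 ± 0.12). In WT it was at 9.33 RPKM in W1 on day 12, against 82.4 and 77.3 RPKM on day 2 (log2 change -2.97 ± 0.15). The groups of days do not overlap in either genotype. Impact was also lower on day 12 in both genotypes, but its fall passed in DKO lines only, as given below. Snrpn and its upstream reading frame Snurf occupy the same exons, and their rows were nearly equal in every library, so they count as 1 measurement.

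The genotypes were compared at the 6 conditions that had matched libraries of both. On LG day 2, 0 of 9 members passed, where 0.15% of all genes did. By unadjusted p, 956 of 14672 genes were under 0.05 in that comparison. On LG day 4, 2 of 9 members passed (1.67% of all genes), on LG day 8 1 (18.9% of all genes) and on LG day 12 2 (35.3% of all genes, 22.3% higher and 13% lower). The 3279 higher and 1905 lower genes of LG day 12 became 2561 and 2400 under median-of-ratios scaling. In HG, 1 of 9 passed on day 8 (15.3% of all genes) and 2 of 9 on day 12 (32.2% of all genes, 20.2% higher and 12% lower). In HG on day 12, the 2969 higher and 1761 lower genes became 2345 and 2209 under median-of-ratios scaling. From day 8 on, the number of members called was thus under the share of all genes. In all 42 libraries as labelled, 0 members passed in any of these 6 comparisons, and 570 of 14918 genes still passed on LG day 12.

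**Figure D2:**
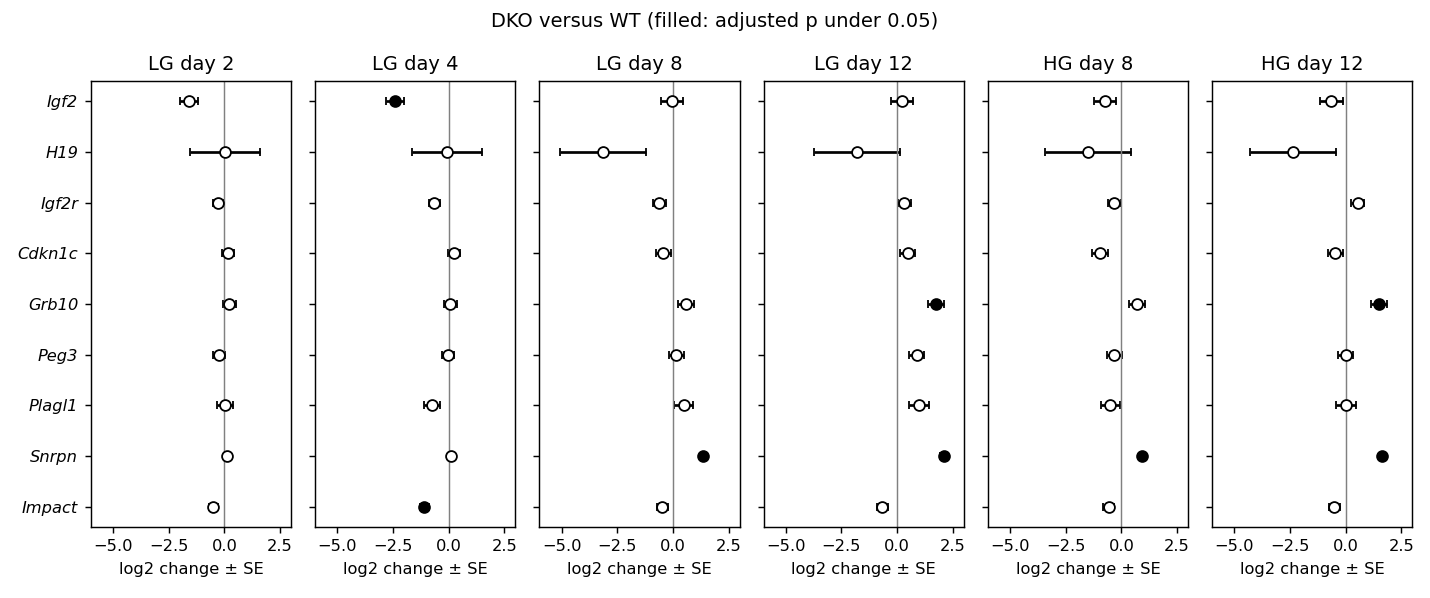
Log2 change of each member in DKO over WT lines (horizontal axis, with its SE as the bar) at the 6 conditions with matched libraries of both genotypes, where filled points passed the adjusted threshold. Igf2 and Impact pass below 0 on LG day 4, Snrpn passes above 0 at days 8 and 12 in both glucose levels, and Grb10 passes above 0 at day 12 in both.

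Igf2 was low in early DKO embryoid bodies. On LG day 4 it was at 3.31 RPKM in K1 and 3.30 RPKM in K3, against 37.8 and 18.8 RPKM in the 2 libraries of W1 and 17.8 RPKM in W2. The DKO values lie below every WT value, with a log2 change of -2.41 ± 0.41 (adjusted p = 0.0198). On LG day 2 the order was the same, with 0.945 and 2.26 RPKM in DKO lines against 5.84 and 7.47 RPKM in WT lines, but the change of -1.59 ± 0.41 did not pass (adjusted p = 0.278). By LG day 8 the groups overlapped, with 356 and 548 RPKM in DKO lines and 458 RPKM in W1. In HG, K3 had 830 RPKM on day 8 against 1139 and 1717 RPKM in WT lines, and 1460 RPKM on day 12 against 2220 and 2329 RPKM in WT lines. K3 was the lowest of the HG libraries on both days, and neither difference passed the test (adjusted p = 0.317 and 0.349).

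The day 4 difference of Igf2 passed in the fit of single conditions but not when either WT line was left out (adjusted p = 0.630 without W1 and 0.192 without W2). It also did not pass in all libraries as labelled, where the log2 change was -1.66 with an adjusted p of 1. With 1 value per line, the mean of LG days 2 and 4, the change of Igf2 was -2.001 ± 0.181 and that of Impact -0.80 ± 0.16. That fit, with 2 lines against 2, called 0% of 14672 genes, 0 members among them (limma, Benjamini-Hochberg adjusted p = 0.323 for Igf2 and 0.382 for Impact), and 1640 genes were under an unadjusted p of 0.05. Visceral endoderm is an extraembryonic layer that gives rise to part of the yolk sac, where Igf2 is abundant. On LG day 4, 0 of its 8 markers passed between genotypes. The summed RPKM of these markers was 31.0 in K1 and 2.95 in K3, against 108 and 149 in the W1 libraries and 15.6 in W2, so that the genotypes overlap. In K3, 3 of the 8 markers (Afp, Fgb and Apoa1) were at 0, and the part of these cells in the Igf2 difference was not tested.

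The genotype difference in Igf2 changed with the day in LG (F test over 4 days, adjusted p = 0.0424, where 10.6% of all genes passed). The DKO minus WT change of Igf2 went from -1.59 on day 2 to 0.21 on day 12, a shift of 1.81 ± 0.65 on the log2 scale. The gap of day 2, with DKO lines lower, was thus no longer seen on day 12. Snrpn also passed the F test (adjusted p = 0.000273), and its change widened from 0.14 on day 2 to 2.09 on day 12, by 1.95 ± 0.19. The other 7 members did not pass. Neither Igf2 nor Snrpn passed without W2 or with all libraries as labelled, and Igf2 also did not pass without K3 (adjusted p = 0.116).

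H19, an untranslated RNA transcribed from the maternal copy beside Igf2, varied widely between lines of one genotype. On LG day 12 it was at 166 RPKM in K1 but at 2.77 RPKM in K3, against 85.6 RPKM in W1. On LG day 8 it was at 28.2 RPKM in K1 and 3.85 RPKM in K3, against 105 RPKM in W1. In HG, K3 had 29.5 RPKM on day 8 and 22.7 RPKM on day 12, against 246 and 211 RPKM in W1 and 29.0 and 69.4 RPKM in W2. Between LG days 12 and 2, H19 rose in WT (85.6 RPKM in W1 on day 12, against 2.68 RPKM in W1 and 0.821 RPKM in W2 on day 2, log2 change 5.06 ± 1.93, adjusted p = 0.0418). That call was lost without W2 (adjusted p = 0.187), and the DKO change of 3.26 ± 1.57 did not pass (adjusted p = 0.103, and 0.0307 with the line as a fixed replicate block). H19 did not pass in any of the 6 genotype comparisons, and the SE of its log2 change was 1.57 to 1.93.

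Between the WT lines, H19 was higher in W1 than in W2 in 5 of 5 matched conditions, by 1.02 to 3.04 on the log2 scale. On LG day 4 it was at 13.7 and 7.27 RPKM in the W1 libraries and 0.648 RPKM in W2, and on HG day 8 at 246 RPKM in W1 and 29.0 RPKM in W2. Between the DKO lines, K1 was higher than K3 in 2 of 4 conditions, by 5.47 on LG day 12. Each comparison of lines sets single libraries against each other and has no replicate of its own. Igf2 did not follow H19 in this: on LG day 12, K3 had the higher Igf2 level of the DKO lines and the lower H19 level. The level of Igf2 was 695 times that of H19 in K3 on LG day 12, against 6.06 times in K1 and 14.0 times in W1. It was 142 times in K3 on LG day 8 and 59.2 times in W2 on HG day 8. High ratios were not confined to K3 or to matched libraries. The contradicted libraries headed ESC of W2 and of K3 had 273 and 345 times. Their Prkaa2 was at 12.6 and 18.1 RPKM and their Txnip at 0.997 and 2.18 RPKM, which reads as WT and LG.

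**Figure D3:**
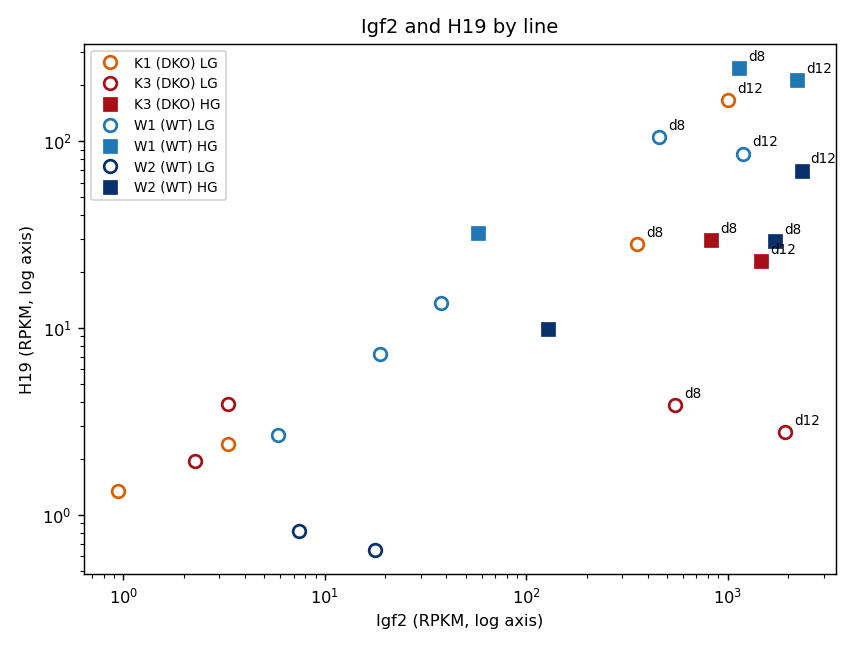
H19 against Igf2 (both RPKM, log axes) in the matched embryoid body libraries, 1 point per library, coloured by line, with open circles for LG, filled squares for HG and the day written at points of days 8 and 12. At days 8 and 12 the libraries lie close together in Igf2 (356 to 2329 RPKM) and apart in H19, from 2.77 RPKM in K3 on LG day 12 to 246 RPKM in W1 on HG day 8.

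Grb10, an adaptor protein that binds the insulin and Igf1 receptors and restrains growth, was higher in DKO embryoid bodies at the last day. On LG day 12 it was at 160 RPKM in K1 and 364 RPKM in K3, against 70.8 RPKM in W1 (log2 change 1.75 ± 0.36, adjusted p = 0.00329). On HG day 12 it was at 354 RPKM in K3, against 120 and 128 RPKM in WT lines (1.51 ± 0.36, adjusted p = 0.00885). The groups do not overlap in either glucose level, and K3 was higher than K1 in all 4 LG conditions, by up to 1.18 on the log2 scale. On days 2 and 4 the difference was within 0.23 on the log2 scale and did not pass. Grb10 rose with the day in DKO lines (log2 change 1.77 ± 0.29 between LG days 12 and 2) and was at 0.25 ± 0.36 in WT lines, which did not pass. The difference between these changes was 1.53 ± 0.46, and the F test of the genotype by day did not pass (adjusted p = 0.0952, and 0.0448 with the line as a random replicate block). The day 12 calls of Grb10 did not hold without W2 or, in HG, without W1. In LG the WT arm was W1 alone, so leaving out W2 kept the log2 change at 1.75 and altered only the shared spread. In HG the log2 change was 1.55 without W2 and 1.46 without W1, with 1 library in each arm. In all libraries as labelled the log2 change was 2.10 in LG (adjusted p = 0.0555) and 0.37 in HG (adjusted p = 0.682). With libraries matched on Prkaa2 and Txnip only, it was also 0.37 in HG (adjusted p = 0.614).

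Snrpn was higher in DKO embryoid bodies from day 8 on. On LG day 8 it was at 71.2 and 56.9 RPKM in DKO lines, against 24.4 RPKM in W1 (log2 change 1.35 ± 0.15, adjusted p = 0.000613). On LG day 12 it was at 47.6 and 38.5 RPKM in DKO lines, against 9.33 RPKM in W1 (2.09 ± 0.15, adjusted p = 7.87e-06). In HG it was at 73.3 RPKM in K3, against 39.8 and 36.7 RPKM in WT lines on day 8 (0.92 ± 0.15, adjusted p = 0.00485). On HG day 12 it was at 55.4 RPKM in K3, against 16.9 and 17.3 RPKM in WT lines (1.64 ± 0.15, adjusted p = 6.29e-05). On days 2 and 4 the changes were 0.14 and 0.11 and did not pass. The HG day 8 call did not hold without W1 (log2 change 0.98) or without W2 (0.87), which leaves 1 library in each arm. Those of LG days 8 and 12 and HG day 12 held in every set of lines that could be fitted. No such set tests the arm of 1 library in each call, W1 in LG and K3 in HG. Leaving out W2 in LG, or K1 in HG, left the log2 change as it was. In all libraries as labelled the log2 change lay between 0.37 and 2.06 at these 4 conditions, with adjusted p between 0.145 and 0.929.

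Markers of cell types moved with genotype at the same conditions. On LG day 8, 1607 of all 14672 genes were higher and 1165 lower in DKO lines. Of the markers, 3 of 6 for pluripotency were higher and 6 of 8 for visceral endoderm lower. Their summed RPKM was 439 and 335 in DKO lines against 153 in W1 for pluripotency, and 119 and 7.65 in DKO lines against 816 in W1 for visceral endoderm. On HG day 8, 1158 of all 14672 genes were higher and 1082 lower. Of the markers, 3 of 6 for pluripotency were higher, 5 of 8 for visceral endoderm lower and 5 of 7 for fibroblasts lower. The visceral endoderm sum was then 73.3 in K3 against 2630 and 1455 in WT lines. Of 6 pluripotency markers, 5 were higher in DKO lines on LG day 12, and their summed RPKM was 346 and 301 in DKO lines, against 46.2 in W1. Of 8 visceral endoderm markers 5 were lower, with sums of 233 and 173 in DKO lines against 3506 in W1. Of 7 fibroblast markers 4 were lower, with sums of 314 and 488 in DKO lines against 1222 in W1, and 0 of 7 cardiac markers passed. On HG day 12 the pluripotency sum was 238 in K3 against 27.9 and 37.4 in WT lines, the visceral endoderm sum was 1321 in K3 against 5131 and 7589 in WT lines, and the fibroblast sum was 186 in K3 against 2317 and 1731 in WT lines. The cardiac sum was 1133 in K3 against 217 and 204 in WT lines, with 7 of 7 cardiac markers higher. On HG day 12, 5 of 6 pluripotency markers were higher, 2 of 8 visceral endoderm markers lower, and 6 of 7 fibroblast markers lower and 1 higher. None of these markers was at 0 in the matched libraries of days 8 and 12. Their part in the differences of Snrpn and Grb10 was not tested.

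Impact, a regulator of translation that inhibits activation of the kinase Gcn2, differed with glucose and with genotype. It lies on the plus strand of chromosome 18, 12972252 to 12992948. On day 4, WT embryoid bodies in LG had 69.1 and 64.8 RPKM in the W1 libraries and 86.9 RPKM in W2, against 33.7 RPKM in W1 and 27.1 RPKM in W2 in HG. Every LG value lies above both HG values, with means of 76.9 ± 14.1 RPKM in LG and 30.4 ± 4.65 RPKM in HG (SD, n = 2 lines each) and a log2 change of 1.31 ± 0.20 (adjusted p = 0.00314). This comparison was added after the data had been seen. In it, 2 of 9 members passed, Impact higher and Igf2 lower in LG, where 12.2% of all genes passed (4.31% higher and 7.86% lower). The 633 higher and 1153 lower genes became 768 and 894 under median-of-ratios scaling. Igf2 was at 37.8, 18.8 and 17.8 RPKM in LG, against 57.4 and 128.8 RPKM in HG (log2 change -1.93 ± 0.41, adjusted p = 0.0117). Without W1 or W2 neither passed (adjusted p for Impact 0.101 and 0.650), and as labelled the log2 change of Impact was 1.03 and that of Igf2 -0.17, both with an adjusted p of 1. In the same comparison 0 of 8 visceral endoderm markers passed, 1 of 6 pluripotency markers and 1 of 7 cardiac markers were lower in LG, and 1 of 7 fibroblast markers was higher and 2 were lower.

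At later days the LG values of Impact were also above the HG values, but did not pass. In WT the W1 library in LG had 46.7 RPKM on day 8 against 30.1 and 29.7 RPKM in HG (adjusted p = 0.213), and 53.2 RPKM on day 12 against 25.3 and 30.6 RPKM in HG (adjusted p = 0.0678). In DKO lines Impact was at 34.9 and 31.4 RPKM in LG on day 8 against 19.7 RPKM in HG (adjusted p = 0.219), and at 30.7 and 35.97 RPKM in LG on day 12 against 19.2 RPKM in HG (adjusted p = 0.168). LG values were thus the higher ones in both genotypes at each of these days, and a difference in the glucose response between genotypes was not tested. Among the other members, Snrpn was lower in LG than in HG in WT on day 8 (log2 change -0.62 ± 0.15, adjusted p = 0.0421) and day 12 (-0.81 ± 0.15, adjusted p = 0.0112). Cdkn1c was lower on day 8, at 61.8 RPKM in LG against 163 and 226 RPKM in HG (-1.62 ± 0.34, adjusted p = 0.0264). These were 2 of 9 members on day 8 (3.31% of all genes) and 1 of 9 on day 12 (3.56% of all genes). With the line as a replicate block, which pairs values of one line, Cdkn1c also passed on day 12 (log2 change -1.15, adjusted p = 0.00781, line as a fixed block). Impact passed there with the line as a random block (0.93, adjusted p = 0.0420). Cdkn1c passed on day 4 with the line as a fixed block (-0.55, adjusted p = 0.0259, against 0.220 without it). In DKO lines 0 of 9 passed on day 8 (1.75% of all genes; 1, Cdkn1c, with the line as a fixed block, adjusted p = 0.0445) and 0 of 9 on day 12 (2.1% of all genes). None of these 3 WT calls held without W2. Markers of other cells moved in the same comparisons: in WT, 7 of 7 cardiac markers were lower in LG than in HG on day 8 and 6 of 7 on day 12, and 5 of 7 fibroblast markers were lower on day 8. The cardiac sum was 11.01 RPKM in LG against 211 and 663 RPKM in HG on day 8, and 25.1 RPKM in LG against 217 and 204 RPKM in HG on day 12. The part of these cells in the differences of Snrpn and Cdkn1c was not tested. As labelled, the WT differences of Snrpn had the opposite sign (0.36 and 0.76) and did not pass. The LG arms then also held the libraries headed W2 of days 8 and 12, with 97.8 and 89.5 RPKM of Snrpn. Both go against their headings, with Prkaa2 at 0.416 and 0.04 RPKM and Txnip at 65.2 and 190 RPKM. In each arm with 1 library, the spread was borrowed from the groups with 2 values.

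Across all 42 libraries, headings aside, Impact was at 27.1, 51.9 and 86.9 RPKM (lowest, median and highest) in the 19 libraries with Txnip at or under 5 RPKM. In the 23 libraries with Txnip above 5 RPKM it was at 13.5, 25.5 and 39.0 RPKM. Of the 19 libraries, 13 lay above the highest of the 23. No library had Txnip between 2.18 and 19.9 RPKM. This is a description by a measured transcript, with no test.

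**Figure D4:**
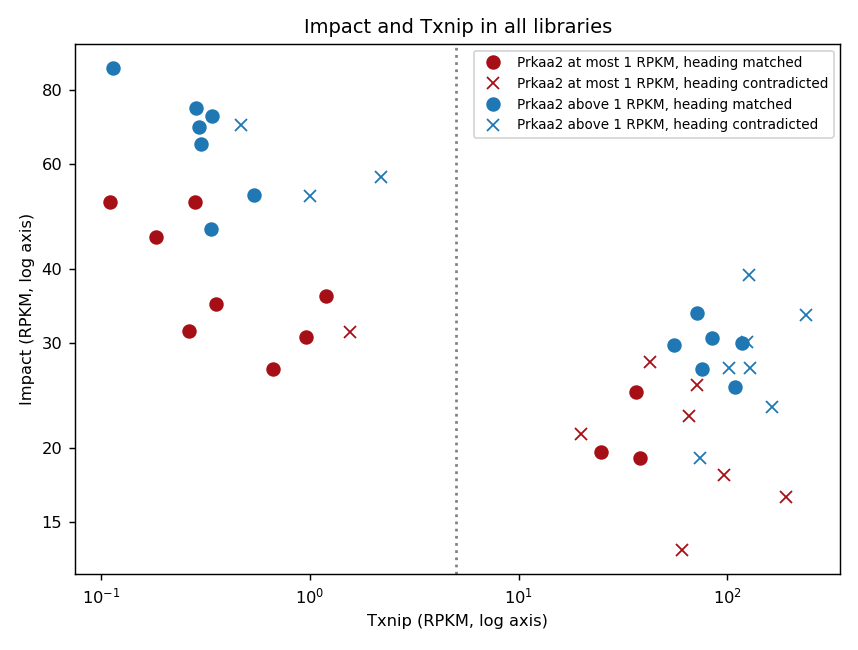
Impact against Txnip (both RPKM, log axes) in all 42 libraries, 1 point per library, red for Prkaa2 at or under 1 RPKM and blue above it, with circles where the heading matched, crosses where it was contradicted and the 5 RPKM threshold of Txnip as a dotted line. Libraries fall into a low and a high Txnip cloud, Impact is 27.1 to 86.9 RPKM in the first and 13.5 to 39.0 RPKM in the second. The highest Impact value is 51.9 RPKM among red points and 86.9 RPKM among blue points.

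Impact was lower in DKO than in WT embryoid bodies on LG day 4, at 45.3 RPKM in K1 and 27.1 RPKM in K3 against 69.1, 64.8 and 86.9 RPKM in WT libraries (log2 change -1.10 ± 0.20, adjusted p = 0.0287). The values do not overlap. At the other 5 conditions the change was -0.66 to -0.48 and did not pass, with DKO values below WT values at each: 51.8 and 51.9 RPKM against 72.3 and 74.6 RPKM on LG day 2 (adjusted p = 0.689), and 30.7 and 35.97 RPKM against 53.2 RPKM on LG day 12 (adjusted p = 0.0580). In HG, K3 was at 19.7 RPKM on day 8 against 30.1 and 29.7 RPKM in WT lines, and at 19.2 RPKM on day 12 against 25.3 and 30.6 RPKM in WT lines. The LG day 4 call did not hold without W1, W2 or K3 (adjusted p = 0.630, 0.378 and 0.101), and as labelled the log2 change was -1.08 with an adjusted p of 1. Impact also fell with time in DKO lines (log2 change -0.63 ± 0.20 between LG days 12 and 2, adjusted p = 0.0227), while the WT change of -0.46 ± 0.25 did not pass (adjusted p = 0.142). That DKO call was also lost without K1, W1 or W2. W1 and W2 are not part of this contrast, so leaving them out altered only the shared estimate of the spread. That estimate then had 4 residual degrees of freedom instead of 9.

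Igf2r, Cdkn1c, Peg3 and Plagl1 did not pass in any comparison of DKO with WT lines. The nearest were Peg3 on LG day 12, with 171 and 285 RPKM in DKO lines against 120 RPKM in W1 (adjusted p = 0.0615), and Cdkn1c on HG day 8, with 98.0 RPKM in K3 against 163 and 226 RPKM in WT lines (adjusted p = 0.0727, and 0.0278 with the line as a random replicate block). Cdkn1c was lower in K1 than in K3 in 4 of 4 LG conditions, by 0.21 to 0.79 on the log2 scale.

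The wider pathway was read from fixed lists on LG day 12, where the median log2 change of all genes was 0.16. Of 22 genes of the Igf axis, 20 were tested, 3 were higher and 2 lower in DKO lines, with a median of 0.23, where 22.3% of all genes were higher and 13% lower. Igf1r, the receptor through which Igf2 signals, averaged 10.1 RPKM in DKO lines against 4.80 RPKM in W1 (log2 change 0.94 ± 0.17). The ligand Igf1 was at 2.79 RPKM in DKO lines against 0.834 RPKM in W1 and the receptor substrate Irs1 at 6.58 RPKM against 3.35 RPKM in W1. The insulin receptor Insr was lower, at 8.57 RPKM in DKO lines against 15.9 RPKM in W1 (-0.82 ± 0.16). On day 4 in WT lines, 5 of these 20 genes were lower and 0 higher in LG than in HG, where 7.86% of all genes were lower and 4.31% higher. Among them, named after their values were seen, were the Igf-binding proteins Igfbp3, at 14.5 RPKM in LG against 88.4 RPKM in HG, and Igfbp4, at 4.92 RPKM in LG against 15.2 RPKM in HG.

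Of 42 further imprinted genes outside chromosome 6, 32 were tested on LG day 12, 10 were higher and 2 lower in DKO lines, with a median of 0.41. For all genes the shares were the 22.3% higher and 13% lower given above. Apart from Snurf, which shares its reads with Snrpn, the smallest adjusted p values belonged to Usp29, next to Peg3 (2.43 RPKM in DKO lines against 0.588 RPKM in W1), Nap1l4 (80.9 RPKM against 49.4 RPKM in W1) and Peg12 (9.91 RPKM against 2.58 RPKM in W1). In HG on day 12, 7 of the 32 were higher and 7 lower, where 20.2% of all genes were higher and 12% lower.

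Genes that keep methylation marks at imprinted regions were mostly higher in DKO embryoid bodies on day 12. On LG day 12, 11 of 13 tested were higher and 0 lower, with a median of 0.71, where 22.3% of all genes were higher. On HG day 12, 9 of 13 were higher and 0 lower, where 20.2% of all genes were higher. On LG days 2 and 4, 0 and 1 of 13 were higher. Hells, a chromatin remodeller needed for DNA methylation, averaged 71.0 RPKM in DKO lines against 25.7 RPKM in W1 on LG day 12, and Ctcf, which binds the control region of Igf2 and H19, averaged 47.3 RPKM against 30.1 RPKM in W1. Trim28, the corepressor that Zfp57 recruits, was at 296 and 259 RPKM in DKO lines against 135 RPKM in W1 on LG day 12, and at 241 RPKM in K3 against 124 and 126 RPKM in WT lines on HG day 12. Dppa3, which guards the maternal marks in the zygote, was at 23.4 and 17.6 RPKM in DKO lines against 1.27 RPKM in W1 on LG day 12. Several of these genes are also high in pluripotent cells, whose markers moved in the same libraries as given above. The part of pluripotent cells in these differences was not tested.

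Over all 42 libraries, the 3 genes whose log2(RPKM + 1) was most like that of each member, by Pearson r, often included its own neighbours. For Igf2 they were Igf2os (0.971), Cdc42ep1 (0.971) and Pmp22 (0.970), and for H19 Mir675 (0.970), Klhl26 (0.856) and Clip2 (0.835). For Igf2r they were Adamts1 (0.978), Tanc2 (0.973) and the antisense RNA Airn (0.970). For Cdkn1c they were C430049B03Rik (0.958), Hsd11b2 (0.957) and Dlk1 (0.955), and for Grb10 Emilin2 (0.928), Kdr (0.926) and Hmga2-ps1 (0.926). For Peg3 they were its antisense partner Peg3os (0.994), Nrp1 (0.946) and Airn (0.944), and for Plagl1 Cd248 (0.972), Ccdc80 (0.967) and P4ha3 (0.958). For Snrpn they included Snurf (1.00) and Hmga1 (0.961), and for Impact they were Sec16a (0.907), Optn (0.860) and Flcn (0.856). Reads were not assigned to a strand, so reads of Igf2 and Igf2os within the 98 exonic bases they share cannot be told apart, nor can those of H19 and Mir675 within 84 shared bases or of Cdkn1c and its antisense partner Gm44732 within 589. On their own strand, Igf2 also shares 3596 exonic bases with the overlapping coding gene Gm49394, and Snrpn shares 324 with Gm38393. Igf2r and Airn share no exonic bases. Between members, r was 0.952 for Igf2 with Igf2r, 0.681 for Igf2 with H19, -0.689 for Igf2 with Snrpn and 0.00434 for Igf2 with Impact. These values describe libraries that share lines and days.

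The only matched library headed ESC was that of K1 in HG. It had 138 RPKM of Snrpn, the highest of all 42 libraries, 46.0 RPKM of Igf2, 10.4 RPKM of H19, 83.6 RPKM of Grb10 and 24.8 RPKM of Impact. Its visceral endoderm sum was 31.8 RPKM, against 158 and 38.7 RPKM in the matched WT HG libraries of day 4. Its pluripotency sum was 923 RPKM, against 901 and 917 RPKM in those libraries. Those had 128 and 121 RPKM of Snrpn and 57.4 and 129 RPKM of Igf2. Since Prkaa2, Txnip and Ddx3y do not check the day, the stage of this library is not settled. No comparison with ESC was tested.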

How the data were processed

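Expression was measured in 42 libraries of mRNA, prepared without strand information, per the labels' protocols. The deposited values are RPKM for each gene, made by the authors. The submitters' processing notes name the build mm10 and, with no order, HOMER, the aligner STAR 2.4.0k and edgeR 3.6.8. Columns were assigned by heading alone, and 6 headings stood over 2 columns each, which were averaged per line on the log scale for tests. Depth was estimated from the steps of low RPKM values, 100% of which came out whole within 0.1 read in genes of 200 to 1500 bases.

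Tests used limma 3.58.1 (R 4.3.3) on log2(RPKM + 1), which understates the change of low genes, with a mean-variance trend and 1 value per line and condition. Genes needed 1 RPKM in 2 values. The Benjamini-Hochberg adjustment ran over all genes tested, with a threshold of 0.05. The fit to matched libraries had 9 residual degrees of freedom, and that to all libraries as labelled had 18. Both treat values of one line as independent, so p-values may be too small. Where both arms hold the same line, as between days or glucose levels, they may instead be too large. For LG over HG in WT on day 4, 1786 genes passed, and 2709 with the line as a random replicate block. The p-values measure only the spread between these samples. Values of one line pair because they come from the same cell line. Their consensus correlation was 0.195. Means and SD are over lines on the RPKM scale. No pair of libraries was identical (0 pairs, largest Pearson r 0.992).

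Every member is reported in every comparison, with the 3 genes most like it (1 of which is not reported here) and, per list, up to 4 genes with the smallest adjusted p on LG day 12. The members, lists and alternatives were chosen with earlier results of these data known. The alternatives were the libraries as labelled, libraries matched on Prkaa2 and Txnip only, a pseudocount of 0.1, no filter, median-of-ratios scaling, no trend, a replicate block and leaving out each line. Sequences and miRNA positions are from RefSeq (GRCm38.p6). The fit was tested on simulated data.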

Additional observations from a re-analysis of the deposited data

Results flagged for a closer look

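A pair of results differed between groups by a test of the difference itself, the F test of genotype by day in LG. The DKO minus WT difference of Snrpn was larger on day 12 than on day 2 by 1.95 ± 0.19 on the log2 scale (SE, adjusted p = 0.000273, limma), with DKO lines at 47.6 and 38.5 RPKM on day 12 against 9.33 RPKM in W1. The DKO minus WT difference of Igf2 moved from -1.59 on day 2 to 0.21 on day 12, by 1.81 ± 0.65 (F test, adjusted p = 0.0424). Both DKO lines lay below both WT lines on day 2, and the W1 value lay between the DKO values on day 12. The day 12 WT arm was W1 alone in both. As given above, neither result passed without W2 or as labelled, and that of Igf2 also did not pass without K3.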

How the results depend on the processing

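Numbers of members called depended most on which libraries were used. With all 42 libraries as labelled, 0 members were called for DKO over WT on LG days 4, 8 and 12 and HG days 8 and 12, for LG over HG in WT on days 4, 8 and 12, for day 12 over day 2 in WT LG, for day 12 over day 8 in WT HG and for genotype by day, and 5 for day 12 over day 2 in DKO LG. Of all 14918 genes, 2769 were called as labelled for day 12 over day 2 in DKO LG, 116 in WT LG and at most 570 in the others. As labelled, Snrpn had the opposite sign for LG over HG in WT, 0.36 on day 8 and 0.76 on day 12. Those LG arms add the libraries headed W2, whose Prkaa2 and Txnip both go against the heading. With libraries matched on Prkaa2 and Txnip only, 0 members were called for DKO over WT on LG day 4 and HG day 8 and for LG over HG in WT on days 8 and 12. In that set 1 was called on LG day 12, for LG over HG in WT on day 4, for HG day 12 over day 8 in WT and for genotype by day. Without a trend, 1 was called for LG over HG in WT on day 8, and with no filter or with median-of-ratios scaling 1 was called for genotype by day. With the line as a random replicate block 2 were called on HG day 8 and 3 for LG over HG in WT on day 12. With it as a fixed replicate block 2 were called in the second of these and 1 for LG over HG in DKO lines on day 8. The fixed block also added Cdkn1c for LG over HG in WT on day 4 (3 members) and H19 for day 12 over day 2 in DKO LG (9 members), and the random block added Grb10 for genotype by day (3 members). The block changed no other call of a member.

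Leaving out each line in turn gave 0 to 3 members on LG day 4, 1 to 2 on LG day 8, 1 to 5 on LG day 12, 0 to 4 on HG day 8 and 1 to 3 on HG day 12. It gave 0 to 3 for LG over HG in WT on days 4 and 8, 0 to 4 on day 12, 0 to 1 for DKO lines on day 12, 0 to 3 for HG day 12 over day 8 and 0 to 5 for genotype by day. The highest number in each range came without K1, and in some also without K3, and the lowest without W1 or W2. Calls over all genes moved the same way on LG days 4 and 12, as given below, so these ranges say little that is particular to the members. Fits without W1 or W2 had 4 residual degrees of freedom and those without K1 or K3 had 5, against 9 with all lines. The fits without W1 gave no WT LG value of days 8 and 12, and those without K3 no DKO HG value, so these were not run. Of 32 called member changes, 5 kept their direction and their side of the threshold as labelled, 25 kept their direction only and 2 reversed. A pseudocount of 0.1 changed 0 of the 32.

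Over all genes, 5184 were called on LG day 12, against 570 as labelled, 2398 without W2 and 6713 without K1. On LG day 4, 245 were called, against 0 as labelled, 43 with Prkaa2 and Txnip alone, 15 without W2 and 1487 without K1. The causes were not tested. Libraries of 10500000 to 25500000 reads put about 27 reads behind the smallest member value, and precision rested on 2 lines per genotype and 1 in several arms.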
